A study of Mus musculus with 24 samples.

Results

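MYT1L-bound sites of wild-type (WT) mouse cortex at embryonic day E18.5 were set against those of adult WT cortex, to see which sites and which genes carried the factor before birth, in the mature brain or at both ages. A site was 1 entry of the deposited list of a stage, and a site was shared when it overlapped a site of the other list by at least 1 bp. The E18.5 list held 14477 sites and the adult list 32145, out of 144257 sites in the 4 MYT1L lists of the series. A protein-coding gene was a target when any part of a site lay within 5 kb of one of its transcription starts.

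MYT1L is a zinc finger transcription factor that is switched on when neurons are born and stays on in mature neurons. It is best known as a repressor that binds the core motif AAAGTT and recruits SIN3 and histone deacetylase co-repressors, and the Notch effector gene Hes1 is a classic target. CUT&RUN maps such binding by tethering a nuclease to the antibody on the chromatin and reading the DNA it cuts free.

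Both groups were wild-type mice of unrecorded sex with no treatment. The labels give the strain as C57BL/6J, whereas the study's methods describe a Myt1l mutant line made in C57BL6/N zygotes and bred with C57BL/6N mice, and which strain the WT animals were is not settled here. The first was E18.5 embryos and the second adults of 3 months, and each had 3 MYT1L libraries beside 3 libraries made with control IgG, which are not analysed here. The sample labels give cortex for all, the protocol in the labels gives whole cortex at E18.5 and prefrontal cortex in the adult, and the study's methods give prefrontal cortex at each age. Adult libraries 2 and 3 carry Myt2l and Myt3l in their titles and count here as MYT1L libraries, since both descriptions point to the Myt1l list. Each list was merged over its 3 libraries, with no height or score per site, so no value below has a replicate error, and depth was unknown. Which animal each library came from was not stated. All E18.5 libraries carried sequencing run label 1 and all adult libraries run label 2, so that stage and sequencing run cannot be told apart in anything that follows. The 95% intervals are exact binomial intervals over sites or genes. They cover counting error only, and sites are not replicates of a stage.

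The sequence of a few sites near the genes discussed below shows what the 2 lists had in common and where they parted. Each line gives 61 bases around the AAAGTT nearest the site's midpoint, on the strand that reads AAAGTT, with that core in capitals (GRCm38.p6, the assembly of mm10, from RefSeq). For each class the 4 widest sites near the genes named by rule are shown, among those with the core within 75 bp of the midpoint and no annotated UTR in the stretch. For shared sites the width is that of the overlap, from 302 to 725 bp. They lay at the start of Rps19 (chr7:24884305-24884365, plus strand), a ribosomal protein gene, at the start of Hes1 (chr16:30065222-30065282, plus strand), in an intron of Stxbp5 (chr10:9902197-9902257, plus strand), which encodes the syntaxin-binding protein tomosyn, and in a promoter of Arid1a (chr4:133757583-133757643, minus strand), a subunit of the BAF chromatin remodeller.
Rps19, shared: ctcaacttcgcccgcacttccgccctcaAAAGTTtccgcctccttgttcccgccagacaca
Hes1, shared: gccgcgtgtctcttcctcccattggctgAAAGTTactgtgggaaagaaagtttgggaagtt
Stxbp5, shared: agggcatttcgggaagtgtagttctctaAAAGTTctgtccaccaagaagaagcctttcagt
Arid1a, shared: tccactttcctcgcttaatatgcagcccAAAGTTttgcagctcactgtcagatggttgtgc

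The E18.5-only sites of this kind were 1236 to 1867 bp wide. They lay in a promoter of Foxp2 (chr6:14901030-14901090, plus strand), a forkhead factor of deep-layer neurons, and in introns of the repressor gene Bcl6 (chr16:23985348-23985408, plus strand), of Pax6 (chr2:105677079-105677139, plus strand), a factor of cortical progenitors, and of Ank2 (chr3:127404826-127404886, plus strand), an ankyrin of the axonal membrane skeleton. The adult-only sites were narrower, at 299 to 330 bp, except for one of 762 bp in an intron of C130026I21Rik (chr1:85263798-85263858, plus strand). The others lay in introns of Tshz3 (chr7:36699854-36699914, minus strand), a zinc finger factor of projection neurons, and Ehf (chr2:103280107-103280167, minus strand), an epithelial ETS factor, and between genes near the keratin gene Krt10 (chr11:99392637-99392697, minus strand).
Foxp2, E18.5 only: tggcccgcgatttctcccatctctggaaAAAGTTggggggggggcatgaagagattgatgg
Bcl6, E18.5 only: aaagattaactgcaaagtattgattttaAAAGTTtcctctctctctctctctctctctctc
Pax6, E18.5 only: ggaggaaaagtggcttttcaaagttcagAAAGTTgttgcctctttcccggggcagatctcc
Ank2, E18.5 only: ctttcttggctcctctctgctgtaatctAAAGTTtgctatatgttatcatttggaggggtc
C130026I21Rik, adult only: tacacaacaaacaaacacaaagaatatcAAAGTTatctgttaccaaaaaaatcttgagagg
Tshz3, adult only: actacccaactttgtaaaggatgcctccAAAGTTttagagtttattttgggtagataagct
Ehf, adult only: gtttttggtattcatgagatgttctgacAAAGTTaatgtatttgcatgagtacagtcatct
Krt10, adult only: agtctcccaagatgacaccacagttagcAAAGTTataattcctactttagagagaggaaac

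Most MYT1L sites of either stage were absent from the other list. At E18.5, 2666 of 14477 sites were shared with the adult, 18.4% (95% interval 17.8 to 19.1%), and 11811 were found at E18.5 alone. In the adult 2848 of 32145 sites were shared, 8.86% (8.55 to 9.18%), and 29297 were found in the adult alone. The sites that were not shared were rarely near misses. Of the E18.5-only sites 2.56% lay within 500 bp of an adult site, and of the adult-only sites 1.09% lay within 500 bp of an E18.5 site. The adult list held more sites that were narrower, with a median width of 167 bp against 593 bp, and it covered 6581 kb against 10003.5 kb at E18.5. The 769 kb that the lists had in common made up 7.69% of the bases bound at E18.5 and 11.7% of those bound in the adult.

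Where the lists met, the adult site was a small piece of the E18.5 site. In 84.2% of the 2848 overlapping pairs (82.8 to 85.6%) the adult site lay wholly inside the E18.5 site, and the reverse held in 1.65%. The E18.5 site was wider in 96.4% of pairs, by a median ratio of 2.99. The 2 midpoints were a median of 109 bp apart, and 75.7% of the adult midpoints (74.1 to 77.3%) fell nearer to the midpoint than to the edge of the E18.5 site. The midpoint of a site that lies wholly inside a wider one is kept from its edge by construction. This share is therefore no measure of centring. No adult site touched more than 1 E18.5 site, while 156 E18.5 sites held 2 adult sites and 13 held 3. Shared sites were also wider than others of their own list, with medians of 737.5 against 571 bp at E18.5 and 254 against 162 bp in the adult.

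Promoters, here the 1 kb before a transcription start and the first 100 bp after it, were frequent among shared sites and rare among adult-only sites. They held 50.8% of shared sites by their E18.5 midpoints (48.8 to 52.7%), 30.7% of E18.5-only sites (29.9 to 31.5%) and 3.62% of adult-only sites (3.41 to 3.84%), beside 2.47% of genome bases. The median distance of a midpoint to the nearest start was 0.462 kb for shared sites, 5.97 kb for E18.5-only sites and 20.06 kb for adult-only sites. Introns held 46.3% of adult-only sites and intergenic sequence 45.1%, beside 39.5% and 52.7% of the genome. Midpoints over 100 kb from any start made up 4.28% of shared, 6.77% of E18.5-only and 10.5% of adult-only sites. Chromosome X, which makes up 6.28% of the genome, held 1.35%, 1.72% and 3.85% of the same classes.

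**Figure D1:**
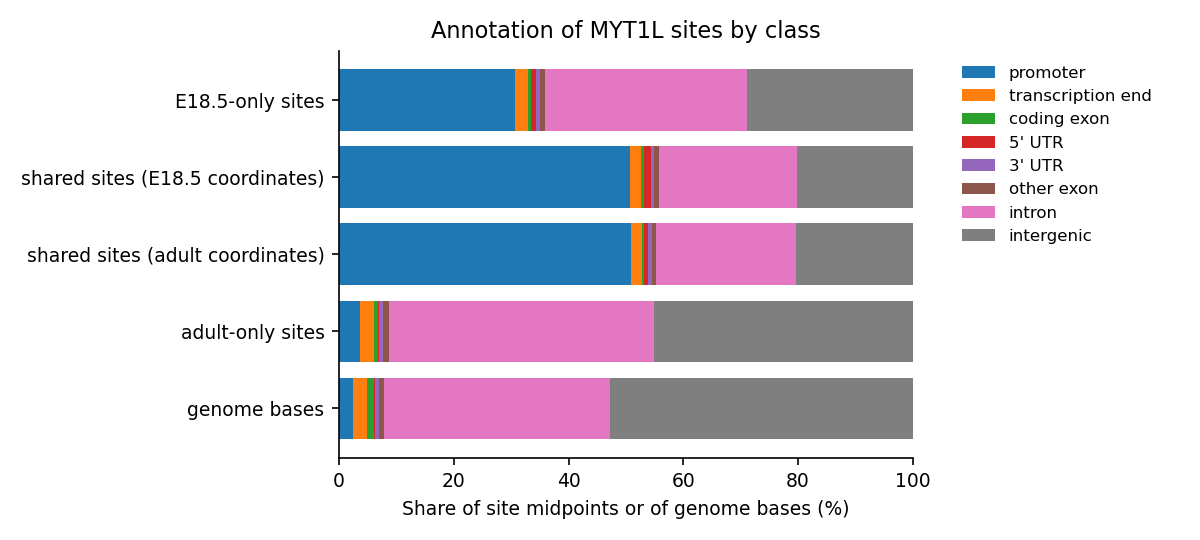
Where the midpoints of E18.5-only, shared (at E18.5 and at adult coordinates) and adult-only sites fell, in % of each class, above the same split of genome bases. The promoter share was 50.8% for shared sites, 30.7% for E18.5-only sites and 3.62% for adult-only sites.

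A promoter site was shared more often than a site elsewhere, by a wider margin when counted from the adult. Of the adult promoter sites 57.8% (55.8 to 59.7%) were present at E18.5, against 4.71% (4.48 to 4.96%) of adult sites outside promoters. Of the E18.5 promoter sites 27.2% (25.9 to 28.4%) were present in the adult, against 13.8% (13.1 to 14.5%) elsewhere. Wider sites were shared more often at both places. Adult promoter sites were shared in 22.2% of cases under 100 bp and in 75.7% at 400 to 800 bp, whereas adult sites of 400 to 800 bp outside promoters were shared in 12.1%. E18.5 promoter sites were shared in 12.4% of cases at 200 to 400 bp and in 41.0% from 800 bp. Away from the starts the E18.5 share was similar at all distances, at 13.9% for midpoints 1 to 10 kb from a start, 13.9% at 10 to 100 kb and 12.5% (10.4 to 14.8%) beyond 100 kb.

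**Figure D2:**
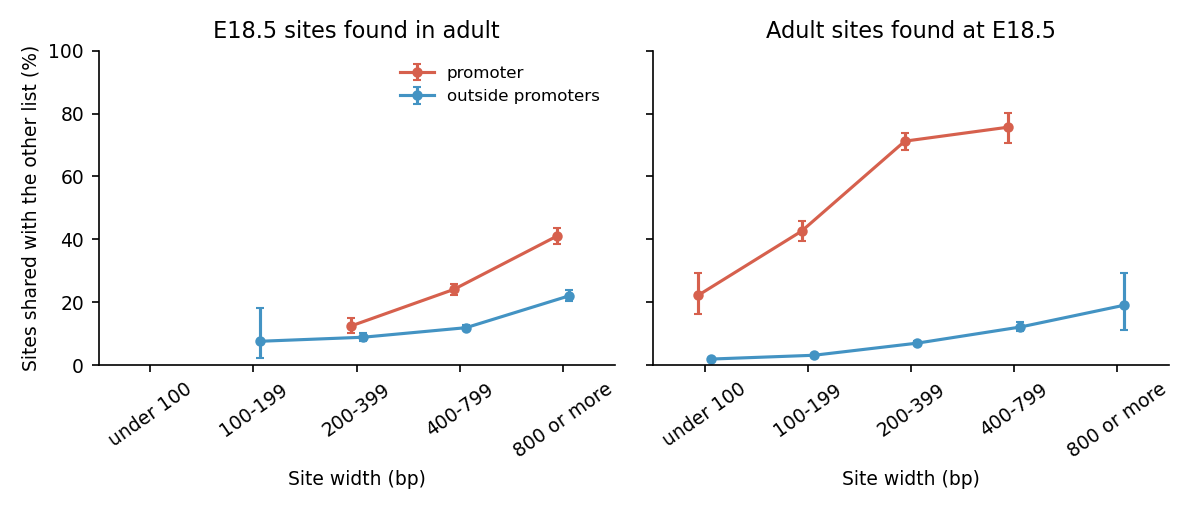
Share (%) of E18.5 sites found in the adult list (left) and of adult sites found at E18.5 (right) by site width in bp, for promoter sites and for sites elsewhere, with exact 95% intervals; bins with under 20 sites are not drawn. Adult promoter sites went from 22.2% under 100 bp to 75.7% at 400 to 800 bp, and adult sites elsewhere stayed at 12.1% or less below 800 bp.

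The same classes were looked up in the other MYT1L lists of the series. At birth (P0), sequenced in run 1 like E18.5, 89.1% of E18.5-only sites and 84.5% of shared E18.5 sites were present, against 3.71% of adult-only sites. In the list of adults with the genotype HET, heterozygous Myt1l mutants of the same strain and age, sequenced in run 2 like the adult WT, 20.8% of shared adult sites (19.3 to 22.3%) and 7.17% of adult-only sites (6.88 to 7.47%) were present, against 6.67% (6.23 to 7.14%) of E18.5-only sites. An adult-only site was thus found again in the other adult list, of 56937 sites, about as rarely as an E18.5-only site was. The 2 shares are not like for like, since E18.5-only sites had a median width of 571 bp against 162 bp. A wider site can meet the 1 bp rule more easily.

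The MYT1L core AAAGTT, searched on both strands within 75 bp of the midpoint, was enriched to a similar degree at shared and E18.5-only sites and little at adult-only sites. It was present at 15.7% of E18.5-only sites (15.1 to 16.4%), 12.9% of shared sites at their E18.5 midpoints (11.7 to 14.2%), 12.3% of shared sites at their adult midpoints (11.1 to 13.6%) and 13.9% of adult-only sites (13.5 to 14.3%). AAAGTT is more frequent in AT-rich sequence, and the median GC content of the windows was 45.0%, 49.7%, 50.3% and 40.4% in the same order. Each share was therefore divided by the share among all genome tiles of the window's length with the same GC content. The ratio was 1.61 (1.55 to 1.68) for E18.5-only sites, 1.58 (1.43 to 1.75) and 1.54 (1.39 to 1.70) for shared sites at their E18.5 and adult midpoints, and 1.10 (1.07 to 1.13) for adult-only sites. Shared sites outside promoters gave 1.62 (1.44 to 1.81), close to the 1.58 (1.51 to 1.65) of E18.5-only sites there, while adult-only sites outside promoters gave 1.10 (1.07 to 1.13). In adult-only promoter sites the ratio was 1.02 (0.836 to 1.23). Repeats covered 24.5% of the average adult-only window against 8.05% of the average shared window at its adult midpoint, and among adult-only sites with under 50% repeat the ratio was 1.14 (1.11 to 1.18). With 250 bp on each side of the midpoint, the ratio was 1.32 for E18.5-only sites and 1.02 (1.002 to 1.03) for adult-only sites.

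**Figure D3:**
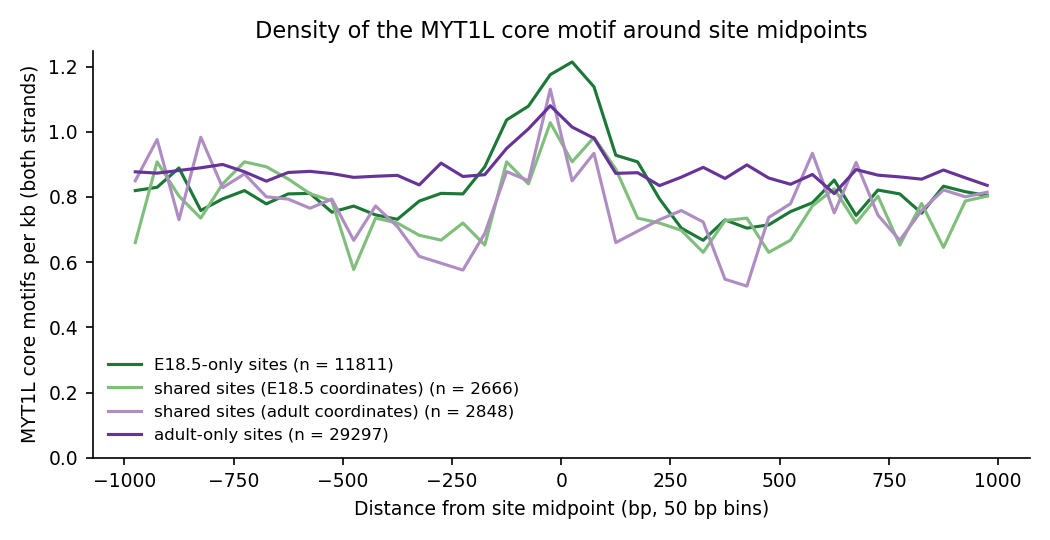
Density of the MYT1L core motif (occurrences per kb on either strand, 50 bp bins) against distance from the site midpoint in bp, for the 4 site classes. E18.5-only sites rose to 1.21 per kb in the bin just past the midpoint from 0.754 to 0.889 per kb over the 10 bins farthest upstream, and adult-only sites to 1.08 in the bin just before it from 0.849 to 0.900.

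Words of other transcription factor families also differed between the site classes outside promoters. Each was searched on both strands, and its share of all tiles outside promoters is given in brackets. For comparison 12.1% of these tiles held AAAGTT. The ratios took account of GC content but not of repeats, which covered 24.8% of the average adult-only window outside promoters against 13.1% at E18.5-only sites. Whether the ratios of these words change without repeats was not tested. The word TTGGCA (7.49%) of nuclear factor I (NFI), a family that acts in neurons and glia of the developing cortex, had a ratio to tiles of the same GC content of 2.36 (2.25 to 2.47) at E18.5-only sites, 2.15 (1.89 to 2.44) at shared sites at their E18.5 midpoints and 1.31 (1.26 to 1.36) at adult-only sites. The cyclic AMP response element core TGACGT (1.08%), bound by CREB, gave 1.94 (1.66 to 2.25), 2.15 (1.47 to 3.04) and 1.01 (0.897 to 1.13) in the same order. The homeodomain word TAATTA (5.50%) gave 1.78, 1.74 and 0.887 (0.845 to 0.930). ATGCAA (9.16%), part of the POU octamer, gave 1.51, 1.48 and 1.11. The E-box CATATG (4.83%), bound by NEUROD and NEUROG factors, was enriched in all classes, at 1.76 (1.63 to 1.89), 2.06 (1.72 to 2.43) and 1.57 (1.50 to 1.63). Its relative CAGATG (11.5%) gave 1.53 (1.46 to 1.60), 1.87 (1.68 to 2.07) and 1.32 (1.29 to 1.36).

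Other words were highest at adult-only sites. TGACTC (7.50%), the AP-1 site of FOS and JUN, gave 0.964 (0.890 to 1.04) at E18.5-only sites, 1.10 (0.904 to 1.31) at shared sites and 1.40 (1.35 to 1.45) at adult-only sites. GTGGGC (5.04%), bound by the activity-induced EGR factors, gave 0.866 (0.783 to 0.955), 0.924 (0.728 to 1.15) and 1.63 (1.57 to 1.70). The TA-rich word CTATAG (3.18%), which is no part of the usual MEF2 site, gave 0.610, 0.809 (0.555 to 1.14) and 1.15 (1.09 to 1.22). The TA-rich word TATATA (7.16%) gave 0.599, 0.658 and 1.30 (1.26 to 1.35). The SOX word ACAAAG (13.9%) was highest at E18.5-only and lowest at adult-only sites, at 1.21 (1.16 to 1.27), 1.00 (0.868 to 1.15) and 0.908 (0.881 to 0.936). The clock E-box CACGTG (1.43%) followed the same order, at 1.36 (1.16 to 1.58), 1.25 (0.810 to 1.83) and 0.925 (0.830 to 1.03), and GGGCGG (1.31%) of SP and KLF factors gave 1.86, 2.67 and 1.72. Some words can share bases, as the SOX and NFI words can with either end of AAAGTT and the EGR word with that of SP and KLF factors. A word is a description of the sequence and not a bound factor.

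**Figure D4:**
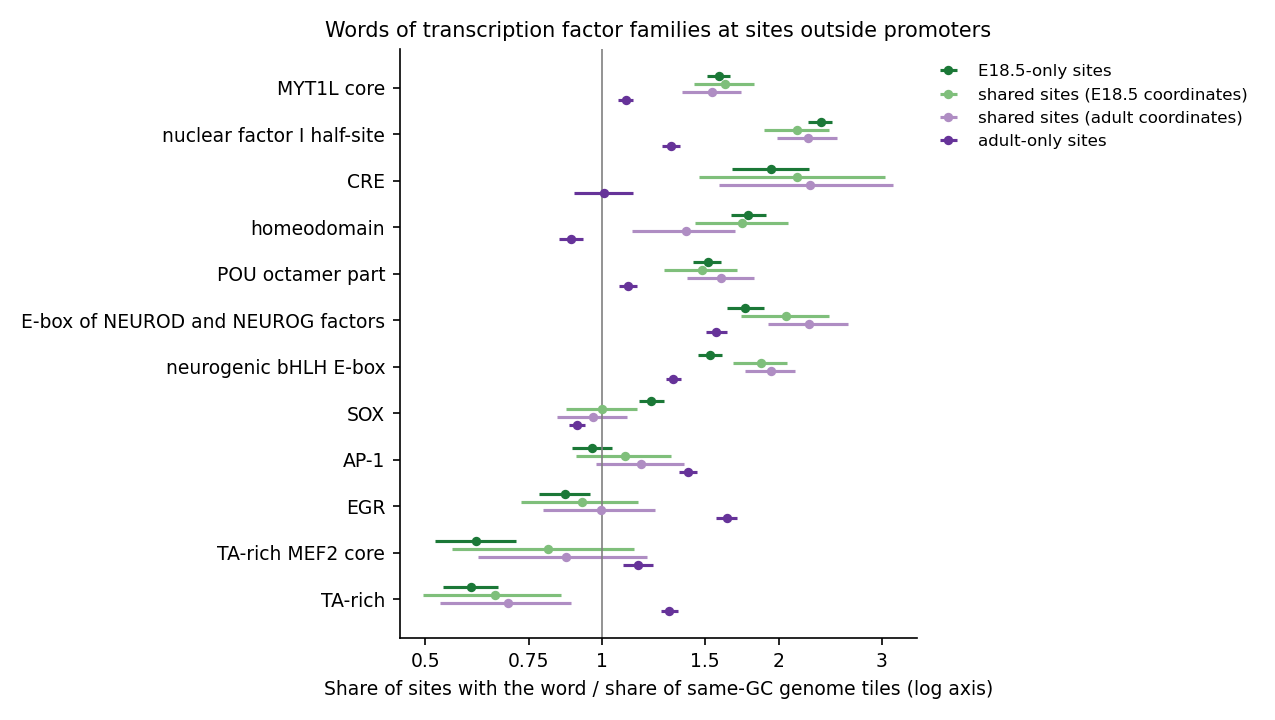
Share of sites outside promoters that hold a word of a transcription factor family divided by the share among genome tiles of the same GC content (log axis, exact 95% intervals), for the 4 site classes. The nuclear factor I word stood at 2.36 at E18.5-only and 1.31 at adult-only sites, the EGR word at 0.866 and 1.63. The word labelled TA-rich MEF2 core, CTATAG, is no part of the usual MEF2 site.

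Of 21938 protein-coding genes, 6587 were targets at E18.5 (30.0%) and 4404 in the adult (20.1%). In both lists 2554 genes were targets (11.6%), 4033 were targets at E18.5 alone (18.4%) and 1850 in the adult alone (8.43%). An adult target was also an E18.5 target in 58.0% of cases (56.5 to 59.5%), and an E18.5 target was also an adult target in 38.8% (37.6 to 40.0%). Both shares were above those of sites. Of the 2554 genes in both lists, 1941 (76.0%, 74.3 to 77.6%) carried an E18.5 site that overlapped an adult site, and 613 were reached through different sites. E18.5 target sites lay a median of 237 bp from the start and adult target sites 1025 bp, and 96.6% of the genes in both lists had more bound bases at E18.5. Among E18.5-only targets 12 of 4033 (0.298%) had a site that overlapped an adult site lying farther than 5 kb from the start.

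The kind of promoter split the gene classes. A promoter was counted as CpG-rich when 1 of the gene's starts had an observed to expected CpG ratio of at least 0.6 and a GC content of at least 50% within 500 bp. Such promoters belonged to 81.4% of the genes in both lists (79.8 to 82.9%), 80.7% of E18.5-only targets (79.5 to 81.9%), 47.2% of adult-only targets (44.9 to 49.5%) and 49.2% of all genes. Adult targets with a CpG-rich promoter were E18.5 targets in 70.4% of cases (68.7 to 72.0%), and those with a CpG-poor promoter in 32.7% (30.3 to 35.2%). E18.5 targets were adult targets in 39.0% (37.7 to 40.3%) and 37.9% (35.2 to 40.7%) of cases in the same order. These shares stand on unlike base rates. Of all genes with a CpG-rich promoter 19.3% were targets in both lists, 30.2% at E18.5 alone and 8.10% in the adult alone. Of those with a CpG-poor promoter the shares were 4.26%, 6.97% and 8.76%. By the number of E18.5 sites, 36.5% of genes with 1 E18.5 site were adult targets (35.3 to 37.8%), 48.0% with 2 sites, 63.3% with 3 and 71.8% with 4 or more (55.1 to 85.0%).

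Among the 10 genes most broadly bound at both stages, ranked by the bases bound in the stage with fewer, were transcription factor and synaptic genes. The first was Mef2c, a MADS-box factor of cortical neurons, with 3 sites of 3642 bp in all at E18.5 and 6 sites of 1964 bp in the adult. Its E18.5 promoter site was missing in the adult, whereas an intronic E18.5 site (chr13:83525921-83527196) held 2 adult sites. Homer1, a scaffold of the postsynaptic density, had 2 sites of 1540 bp and 3 of 1349 bp, and Lrrc7, which encodes the synaptic protein densin, 1 site of 1565 bp and 2 of 1242 bp. The histone gene Hist1h4a had 3 sites of 3496 bp and 5 of 1383 bp. Fbxl19, an F-box protein that binds CpG islands, had 1 site of 2187 bp and 2 of 1301 bp, and the chaperone gene Dnajb5 4 sites at each stage, of 2109 and 1290 bp. Hjurp, the chaperone of the centromeric histone, had 1 site of 1776 bp and 11 of 2820 bp, and its neighbourhood is described with the adult-only genes.

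Among these genes was also Tcf4, a bHLH factor whose loss causes intellectual disability, with 13 sites of 19286 bp at E18.5, the highest number and total of any gene in that list, and 9 sites of 1752 bp in the adult. Nedd4l, a ubiquitin ligase, had 2 sites of 1394 bp and 4 of 1236 bp, and Osbpl1a, an oxysterol-binding protein, 2 of 1261 bp and 6 of 2398 bp. Each of the 10 genes had at least 1 shared site.

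The 10 broadest entries of the E18.5-only class included several regulators of forebrain development. Bcl11a, a zinc finger factor of cortical neurons, had 5 sites of 6017 bp, and its neighbour A830031A19Rik 4 sites of 4845 bp. Pou3f2, which encodes BRN2, had 2 sites of 3792 bp, and Bcl6, a repressor, had 3 sites of 4170 bp that it shared with the neighbouring gene model Gm37419. Mllt10, a partner of the histone methyltransferase DOT1L, had 6 sites of 6672 bp with the nearest adult site 359689 bp away. Tubb2b, a tubulin of migrating neurons, had 3 sites of 4109 bp, St8sia4, which makes the polysialic acid of NCAM, 1 site of 3839 bp, Mpped2 4 sites of 4297 bp and the gene model Gm11146 2 sites of 6595 bp. Over all E18.5-only targets the nearest adult site lay a median of 34.4 kb from a start, beside 43.5 kb for genes in neither list.

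The 10 broadest entries of the adult-only class were of other kinds, and most lay in a few neighbourhoods crowded with adult sites. C130026I21Rik, with 8 sites of 5063 bp, A530032D15Rik, with 4 sites of 1718 bp, and the pair Sp110 and Sp140, nuclear body proteins of immune cells that shared 4 sites of 2452 bp, lay within or beside chr1:84900001-85600000, where each 100 kb bin held 21 to 29 adult sites. Ugt1a1, which conjugates bilirubin, had 5 sites of 2026 bp, Mroh2a 9 of 2131 bp and the cold-sensing channel gene Trpm8 11 of 2128 bp. These were neighbours of Hjurp on the same chromosome, and none of them shared a target site with another or with Hjurp. The gene models Gm21149, Gm21190 and Gm10354 on chromosome 5 had 7 sites of 2782 bp, 7 of 2488 bp and 6 of 1883 bp in bins of 20, 28 and 48 adult sites. Tmem267 on chromosome 13 had 7 sites of 2147 bp. The 100 kb bin that held the adult sites of Hjurp, Ugt1a1 and Mroh2a (chr1:88200001-88300000) had 69 adult sites, the most of any bin. It had 1 site at E18.5 and 14 in adult heterozygotes, and the genome average was 1.18 adult sites per bin. Most target sites of Trpm8 lay just beyond this bin. In all, 30 bins held 20 or more adult sites. They contained 848 adult sites (2.64%) of a median 252 bp, of which 16 were shared, and 30 E18.5 sites. Without the adult sites of these bins the adult had 4378 target genes and 9.05% of its sites were shared.

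Gene lists by function were read against the share of all genes, 30.0% at E18.5 and 20.1% in the adult, and against the number of targets that genes of the same promoter CpG class would give at their common rate. The Notch pathway, which keeps cortical progenitors from differentiating, had 15 targets of 32 genes at E18.5 and 8 in the adult, with 5 in both, where the same CpG class would give 13.1 and 7.75. Hes1, the effector that MYT1L is known to repress, had a promoter site of 1058 bp at E18.5 (chr16:30064545-30065602) and one of 540 bp inside it in the adult (chr16:30064952-30065491). Its AAAGTT stands among the sequences above. The Notch inhibitor gene Numb (1 site, 1057 bp, against 2 sites, 726 bp) and the co-activator genes Maml1, Maml2 and Maml3 were the others in both lists, each with a shared site. Rbpj, the DNA-binding partner of Notch, with 1 site of 2216 bp, the receptor gene Notch2, with 647 bp, and the protease gene Adam10, with 610 bp, were targets at E18.5 alone, and Hes5, another effector, in the adult alone, with 1 site of 409 bp.

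Progenitor genes had 15 targets of 30 at E18.5 and 7 in the adult, beside 12.2 and 7.20 for their CpG class. Sox2, a stem cell factor, had 6 sites of 3696 bp at E18.5 and 1 site of 177 bp in the adult that did not overlap, and Insm1, a zinc finger factor of intermediate progenitors, 1 site each of 613 and 205 bp. The E18.5-only members included Pax6 (4 sites, 3673 bp), Sox9 (3 sites, 3043 bp) and Lhx2 (3 sites, 2410 bp), all transcription factors of the cortical ventricular zone. Wnt pathway genes had 18 targets of 54 at E18.5, below the 24.0 of their CpG class, and 8 in the adult, below its 13.8. The receptor gene Fzd2 (3 sites, 2693 bp) was bound at E18.5 alone, and the kinase gene Gsk3b had a site at each stage, of 1234 and 852 bp, that did not overlap.

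Neuronal transcription factors and layer genes had many targets at both ages. Of 40 neuronal transcription factor genes, 31 were targets at E18.5 and 24 in the adult, 20 of them at both, where the same CpG class would give 16.3 and 9.65. Beside Tcf4 and Mef2c they included Zeb2, a repressor of migrating neurons, with 2 sites of 1709 bp and 5 of 1027 bp. Meis2, a homeodomain factor (1 site, 2796 bp), was a target at E18.5 alone. Of 24 genes of cortical layer identity, 17 were E18.5 targets and 14 adult targets, with 9 in both, beside 10.3 and 5.99 for the CpG class, among them Tle4 (1 site each, 1247 and 694 bp), a deep-layer co-repressor, and Sox5 (1 site, 1927 bp, against 2 sites, 366 bp). Cux1 (4 sites, 2578 bp) and Cux2 (2 sites, 1906 bp) of the upper layers were targets at E18.5 alone. The 5 adult-only members had 90 to 218 bp, the latter at the splicing factor gene Rbfox1. The adult counts moved with the distance and the sites used, as those of all genes did, whose adult share was 11.8% both within 1 kb of a start and with the 14477 widest adult sites. In that order the neuronal transcription factor list had 12 and 17 adult targets, the layer list 7 and 8, the Notch list 4 and 4, the Wnt list 4 and 5 and the progenitor list 3 and 3.

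Neuronal migration and axon guidance genes had 24 targets of 49 at E18.5 and 9 in the adult, beside 20.4 and 11.97 for their CpG class. In both lists were 8 of the 24 E18.5 targets, near the 38.8% over all E18.5 targets, and within 10 kb of a start 13 of 26. The E18.5-only members included the semaphorin co-receptor gene Nrp1 (2 sites, 2032 bp), the ephrin receptor genes Epha4 (3 sites, 1673 bp) and Epha5 (1 site, 1525 bp), and the semaphorin gene Sema3c (2 sites, 1411 bp). Srgap2, a Slit-Robo GTPase activator, had a shared site of 1257 bp at E18.5 and 722 bp in the adult.

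Synaptic vesicle, glutamate receptor and potassium channel genes had more targets in the adult, although the adult list reached fewer genes in all. Synaptic vesicle release genes had 12 targets of 38 at E18.5 and 17 in the adult, where the CpG class would give 13.1 and 8.25. Stxbp5 (1 site, 871 bp, against 2 sites, 588 bp) and the synaptotagmin gene Syt4 (2 sites each, 2098 and 430 bp) were in both lists with a shared site. The 9 adult-only genes had 96 to 393 bp and were led by Syt1 (2 sites, 393 bp), the calcium sensor of release, the active zone gene Pclo (309 bp), the vesicle fusion gene Vamp2 (275 bp) and the active zone gene Erc2 (269 bp). The vesicular glutamate transporter genes Slc17a6 (2 sites, 2797 bp) and Slc17a7 (678 bp) were E18.5-only.

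Glutamate receptor genes had 5 targets of 25 at E18.5 and 11 in the adult, beside 7.77 and 5.12 for their CpG class. Grin1 (2 sites, 292 bp), Grin2a (2 sites, 414 bp) and Grin2c (192 bp) of the NMDA receptor and Gria3 (374 bp) of the AMPA receptor were adult-only, whereas Gria2 (3 sites, 2501 bp), another AMPA receptor gene, was E18.5-only. Potassium channel genes had 7 and 13 targets of 40, beside 15.6 and 9.37, with Kcnj9 (3 sites, 622 bp) and Kcnk2 (291 bp) in the adult alone. With the 14477 widest adult sites, as many as E18.5 has, the synaptic vesicle, glutamate receptor and potassium channel lists had 10, 7 and 7 adult targets against 12, 5 and 7 at E18.5. Within 1 kb of a start they had 11, 5 and 4 adult targets against 10, 3 and 6, so that of the 3 lists glutamate receptors alone kept more adult targets under both alternatives. Calcium channel genes had 4 targets of 20 at E18.5 and 2 in the adult, with Cacna1c in both (3 sites, 2723 bp, against 2 sites, 324 bp), and GABA-A receptor genes had 3 and 1 of 15. Within 10 kb of a start the calcium channel list turned, with 4 and 6. Epilepsy-associated genes, many of them channels and receptors, had 9 and 11 targets of 40, beside 14.8 and 9.08 for their CpG class. Their order turned as well, to 6 and 4 within 1 kb of a start and to 9 and 6 with the widest adult sites.

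Immediate early genes and clock genes had high shares of targets at both ages. Of 30 immediate early genes, which neuronal activity induces, 20 were targets at E18.5 and 15 in the adult, 12 of them at both and 11 of these with a shared site, where the CpG class would give 14.5 and 8.06. Beside Homer1, Jun had 3 sites at each stage, of 3085 and 868 bp, and Gadd45g, a stress sensor gene, 1 site of 975 bp and 3 of 680 bp. Arc (3 sites, 695 bp), Npas4 (2 sites, 649 bp) and Fos (1 site, 210 bp) were adult-only, and Fosb (2 sites, 1569 bp) E18.5-only. Of 21 clock genes 14 and 13 were targets, 11 at both, against 8.85 and 5.17 for their CpG class. Per1 had 1 site of 1300 bp and 2 of 668 bp, Dbp 2 of 2260 bp and 4 of 724 bp, and Arntl, which encodes BMAL1, 1 of 930 bp and 1 of 511 bp, all with a shared site. Per3 (3 sites, 844 bp) and Clock (149 bp) were adult-only, and Nfil3, a repressor in the clock's output (2 sites, 2762 bp), E18.5-only.

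Chromatin regulators had 34 targets of 51 at E18.5 and 19 in the adult, 15 at both, beside 22.9 and 13.1 for their CpG class. Sin3a, the co-repressor scaffold that MYT1L binds, had 3 sites of 3256 bp at E18.5 and 2 of 1228 bp in the adult with an overlap, and Arid1a 3 sites of 3355 bp and 4 of 839 bp. The remodeller gene Chd3 (2 sites, 2601 bp) and Ezh2 (2 sites, 1686 bp), the methyltransferase of Polycomb repression, were E18.5-only, and the deacetylase gene Hdac9 (2 sites, 343 bp) adult-only. Autism-associated genes had 35 targets of 58 at E18.5 and 20 in the adult, 18 at both, beside 23.7 and 14.0 for the CpG class. Those at both included Ank2 (2 sites, 2126 bp, against 4 sites, 731 bp), without a shared site.

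Ribosomal protein genes showed the widest gap between the stages among the lists. Of 82 ribosomal protein genes 67 were E18.5 targets and 29 adult targets, 26 of them at both, where the CpG class would give 38.2 and 21.6. Rps19 (1 site, 902 bp, against 2 sites, 861 bp) had a shared site, and Rps14 (1 site each, 823 and 769 bp) was reached through different sites. Rpl13a had 2 sites at each stage, of 1541 and 650 bp, with an overlap. Of 72 oxidative phosphorylation genes 46 and 23 were targets, beside 31.4 and 18.1 for their class. Atp5g1, a subunit of ATP synthase, had 1 site each of 1050 and 353 bp that overlapped.

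Markers of other cell types were targets less often than all genes at either stage, apart from astrocyte genes in the adult, but several of these lists stood near the rate of their own CpG class. The lists of blood, epithelium, muscle, microglia, vessels and oligodendrocytes, of 21 to 40 genes each, had 1 or 2 targets each at E18.5 and 1 to 5 in the adult. Their CpG classes would give 3.62 to 7.75 at E18.5. In the adult the microglial list had 3 beside 3.30, the muscle list 5 beside 6.07 and the blood list 4 beside 5.29. Farther below their class were the epithelial list with 3 beside 5.99, the vessel list with 1 beside 4.115 and the oligodendrocyte list with 1 beside 3.88. Among them were the microglial gene P2ry12 with an adult site of 300 bp and the mural gene Vtn with an E18.5 site of 1058 bp. Astrocyte genes had 4 targets of 20 at each stage, beside 3.78 and 3.18 for their CpG class, with Glul, the glutamine synthetase gene, in both. Hox genes, which pattern the hindbrain and trunk, had no target of 39 at E18.5 and 3 in the adult, Hoxb13, Hoxc10 and Hoxd1. Their CpG class would give 14.7 and 8.95. Olfactory receptor genes had 5 of 1134 at E18.5 (0.441%) and 100 in the adult (8.82%), and 1 of them was in both lists, where the CpG class would give 127 and 148. The MYT family was bound in the adult at all 3 genes and at E18.5 at 2. Their CpG class would give 0.391 in the adult and 0.337 at E18.5. With as many of the widest adult sites as E18.5 has, only 1 of these genes was an adult target, against 2 at E18.5. Within 1 kb of a start 2 were adult targets and 1 was an E18.5 target. Myt1l had 3 sites of 6965 bp at E18.5 and 3 of 584 bp in the adult, with an overlap at a promoter, St18 had an intronic site of 836 bp at E18.5 that overlapped a narrower adult site, and Myt1 had an adult site alone, of 147 bp.

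**Figure D5:**
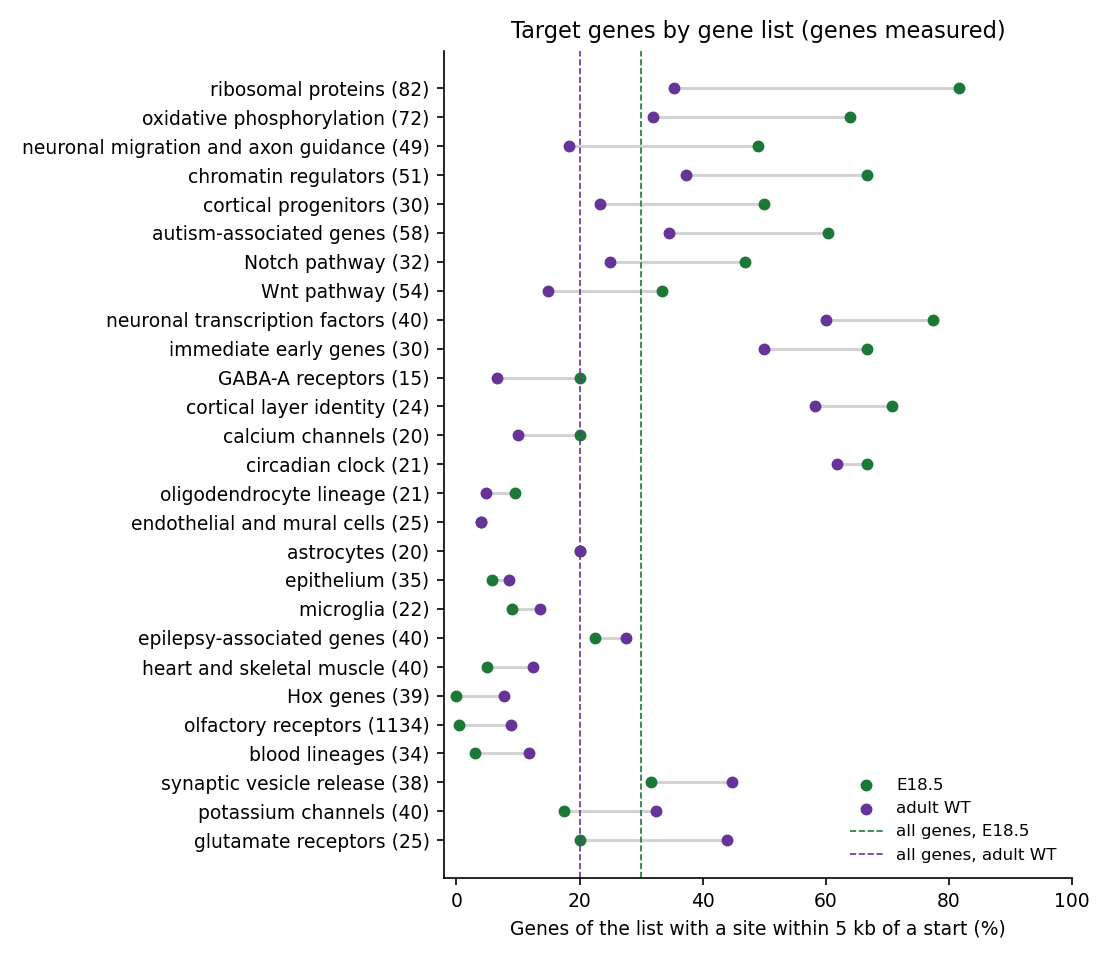
Share (%) of the genes of each list (number of genes in brackets) that were targets at E18.5 (green) and in the adult WT (purple), ordered by the difference; dashed lines give all genes, at 30.0% and 20.1%. Ribosomal protein genes stood at 81.7% and 35.4%, neuronal transcription factor genes at 77.5% and 60.0%, and the points of the astrocyte and endothelial lists coincide.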

How the data were processed

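MYT1L was profiled by CUT&RUN, and the lists were made with the nf-core/cutandrun pipeline. The deposited files of the authors hold 1 merged list per group, as chromosome, start and end in bp on mm10, with no count, score or signal. The aligner, peak caller, threshold, use of IgG and rule for merging were not given in the sources used here, nor was the depth of any library. A list pooled over libraries can hold a site seen in 1 of them.

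Overlaps, distances and shares were computed with Python 3.11.15, numpy 2.4.6, pandas 2.3.3 and scipy 1.17.1, and figures drawn with matplotlib 3.10.9. Starts came from GENCODE basic transcripts on GRCm38.p6. Words were counted within 75 bp of site midpoints and compared with all 17532779 genome tiles of the same length, standardised over 20 GC bins. Intervals were exact binomial 95% intervals and no test was run, since each stage had 1 merged list. The functions for overlap, targets, words, tiles and annotation were tested on simulated data. Alternatives changed the overlap, the width of sites, the promoter, the word or its window, and the distance to a start.

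The genes named were the 10 with the most bases in sites in each class (for both lists, in the stage with fewer bases), up to 4 members per class and gene list, and Hes1 and the MYT family. Other members of a list that are named without this rule (Maml3) were chosen after their values were seen. Some genes that the rule names are not reported here. Sites, words, lists and genes were chosen with earlier results of these data known.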

Additional observations from a re-analysis of the deposited data

How the results depend on the processing

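Counting sites within 500 bp as shared gave 20.5% of E18.5 and 9.85% of adult sites. With as many of the widest adult sites as E18.5 has, the shares were 13.8% and 14.4%, and with sites of at least 200 bp in both lists 12.5% and 15.6%, so that the order of the 2 shares turned where both the number and the width of the adult sites changed. Promoters of protein-coding genes alone held 27.9% of E18.5-only sites, 47.6% and 47.8% of shared sites at their E18.5 and adult midpoints and 2.18% of adult-only sites. With sites of at least 200 bp, shared adult sites stood at 54.3% and adult-only sites at 3.91%. With 250 bp on each side the AAAGTT ratios were 1.32, 1.32, 1.30 and 1.02 in the same order, and adult-only sites with under 50% repeat gave 1.14. Adult targets numbered 2590 within 1 kb of a start and 2593 with the widest sites. The share of genes in both lists with a shared site was 91.4% within 1 kb, 66.9% within 10 kb and 80.4% when sites within 500 bp counted. The other 28 values of the main comparisons moved by less than their counting interval or, for counts, by less than 1.5 times. The alternatives with all GENCODE transcripts and without crowded 100 kb bins were chosen after seeing the data. The causes were not tested.

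Leaving out a replicate was not possible, because each list was merged over its libraries. No paired analysis was possible because the lists carry no replicate numbers. Depth was unknown, so that absence from a list says only that the site was not detected there.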
